A study of Mus musculus with 2 samples.

Results

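The data are single-cell RNA profiles of mouse bone marrow stem and progenitor cells, and the genes described are 9 receptors or receptor subunits for haematopoietic cytokines: Kit, Flt3, Csf1r, Csf2ra, Csf2rb, Csf2rb2, Csf3r, Il3ra and Epor. They were taken as a list of gene symbols, not by any measured value, and all 9 were found in both libraries among 27998 genes. Each genotype had 1 library. The WT library came from mice labelled Trmt6fl/fl, a label for loxP sites in Trmt6, whose product is part of the methyltransferase that makes m1A58 in tRNA. The cKO library came from mice labelled Trmt6fl/fl, MX1-cre. In these mice Cre is made from the interferon-inducible Mx1 promoter, which is active in blood cells and also in other tissues. All mice were 3 months old. The study's figure legend for these cells gives both genotypes Mx1-Cre and pIpC, an inducer of interferon. It names the control Trmt6+/+ Mx1-Cre, and the study's methods list Trmt6fl/+ Mx1-Cre beside Trmt6fl/fl Mx1-Cre. The label of the WT library names floxed Trmt6 and no Cre. Whether the control carried Cre or loxP sites is therefore not settled. The number of mice behind a library is not given in the sources used here. Lineage-depleted marrow was sorted for LSK cells (Lin-, Sca-1+, c-Kit+), so the protein of Kit, 1 of the 9 genes, was itself used to select the cells, and an antibody to Flt3 was part of the staining.

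Cytokine receptors let blood progenitors sense the proteins that keep them alive and direct what they become. Kit, Flt3 and Csf1r are receptor tyrosine kinases, for stem cell factor, Flt3 ligand and M-CSF. The others have no kinase of their own and signal through bound JAK kinases, which then phosphorylate STAT factors. Csf2ra and Il3ra encode the subunits that recognise GM-CSF and IL-3, and both pair with the common beta chain encoded by Csf2rb. Csf2rb2 encodes a second mouse beta chain that serves IL-3 alone. Csf3r is the receptor for G-CSF, the main growth factor of neutrophils, and Epor the receptor for erythropoietin, which red cell precursors need. In LSK cells Kit marks stem and early progenitor cells, and Flt3 is known to increase as progenitors lose self-renewal and take on lymphoid potential.

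The 9 genes lie on several chromosomes of GRCm38 (GENCODE M21, matched by gene ID). Kit is at chr5:75574916-75656722 on the plus strand, and Flt3 at chr5:147330741-147400489 on the minus strand. Csf2rb and Csf2rb2 are neighbours on chromosome 15, at 78325752 to 78353847 on the plus strand and 78282507 to 78305721 on the minus strand. Csf3r is at chr4:126024550-126044440 (plus strand) and Il3ra at chr14:14346275-14356011 (plus strand). Csf2ra is at chr19:61223957-61228429 (minus strand) and Epor at chr9:21958897-21963506 (minus strand). UMIs were counted per whole gene, so a value says nothing of an exon or isoform. The longest Csf2rb and Csf2rb2 transcripts were identical at 88.7% of aligned positions, and at 80.3% over their last 500 bases, where the 3-prime reads of this assay start. Reads from stretches shared by this pair cannot tell the genes apart, and the levels of both are given with that limit.

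Short stretches of 2 promoters are shown because Epor was the only receptor gene higher in the cKO library by more than 2-fold and Kit was 1 of the 3 that were lower by more. RefSeq start sites on GRCm38.p6 were given for 7 of the 9 genes, and the 250 bases before each start were searched on both strands for 3 motifs. The ETS motif was GAGGAA, a core bound by PU.1, a myeloid regulator, and by other factors of the ETS family. The GATA motif was AGATAA, bound by factors that act in stem cells, mast cells and red cell precursors. The RUNX motif was TGTGGT, bound by Runx1 and its relatives. The printed stretches are 30 bases each, read along the strand of the gene, with the match in capitals.
Kit, ETS motif, chr5:75574752-75574781, plus strand: ggagagtgctagGAGGAAgaggatccaggg
Epor, GATA motif on the other strand, chr9:21963613-21963642, minus strand: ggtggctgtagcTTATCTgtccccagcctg
Epor, RUNX motif on the other strand, chr9:21963725-21963754, minus strand: cacttgtccgtgACCACAttagcaaagcca
The match in Kit began 223 bases before its RefSeq start, and those in Epor 54 and 166 bases before its start. The ETS motif was found in 4 of the 7 promoters, the GATA motif in 1 and the RUNX motif in 1, and no motif overlapped another in the printed stretches. Flt3 and Il3ra held none of the 3. Over all 27025 genes with a promoter sequence, 25.9% held the ETS motif, 11.4% the GATA motif and 15.9% the RUNX motif in windows of the same length. A match describes the letters only, and binding was not measured.

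After filtering, 8152 WT cells and 8485 cKO cells remained, with 41533056 and 87022345 UMIs. The cKO library was the deeper, with a median of 10027 UMIs and 2812 genes per cell against 4126 UMIs and 1632 genes in WT. The libraries shared 24 cell barcodes, 21 of them among the kept cells. Trmt6 itself was measured at 63.4 counts per 1000000 UMIs (CPM) in WT, against 50.3 CPM in cKO. The 3-prime count covers the whole gene and does not show whether an exon was removed. Genes of the sort and depletion antigens also differed: Ly6a, which encodes Sca-1, was 34.7 CPM in WT and 142 CPM in cKO, Itgam (CD11b) 10.4 and 1.15 CPM, and Ly6g, a neutrophil antigen, 1.71 CPM and no UMI. With 1 library per genotype no difference could be tested across animals. All intervals below are exact 95% intervals that cover counting error only, and genotype and library cannot be told apart.

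Levels were summed over all kept cells and over cells gated by lineage markers, none of which was a receptor described here. A cell was gated when, after random thinning to 2000 UMIs, at least 3 markers of a lineage were detected and no other lineage scored as high. A GMP or neutrophil marker counted as detected at 3 UMIs or more, any other marker at 1. A cell without a GMP marker could thus hold fewer UMIs of GMP genes. The HSC gate held 183 WT and 398 cKO cells, the lymphoid-primed gate 257 and 53, the GMP (granulocyte-monocyte progenitor) gate 831 and 35, and the monocyte or dendritic gate 164 and 44. In WT a further 114 cells passed the megakaryocyte gate and 61 the neutrophil gate, against 9 and 0 in cKO. The remaining gates held at most 18 WT and 82 cKO cells. Most cells, 6289 in WT and 7716 in cKO, passed no gate. A gate is a range of a score and not a cell type: of the HSC-gated cells, 147 in WT and 307 in cKO had exactly 3 of the 10 markers, and 635 and 963 cells had 2. The median HSC-gated cell carried 0 markers of every other lineage in both libraries, and the median GMP-gated WT cell carried 1 monocyte or dendritic marker. Only the HSC and lymphoid-primed gates had 50 cells in both libraries, and ratios of gates are given for these alone. Ratios by number of markers are also given for steps with fewer cKO cells. The gates set the marker genes, so gate sizes are not compared.

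Over all kept cells 7 of the 9 receptor genes were lower in the cKO library, 1 was higher, and Csf2rb2 could not be placed because its interval spanned 0. By direction alone, 43.1% of 9150 genes that reached 5 CPM were higher in cKO. Kit, Flt3 and Csf1r were lower by more than 2-fold, and Epor was higher by 2.09-fold. Kit was short of 2-fold among cells of 4000 to 8000 UMIs (log2 ratio -0.87), and Epor was not counted past 2-fold under 6 of 12 alternatives. The threshold of 2-fold (1 on the log2 scale) was applied to genes at 5 CPM or more in at least 1 library, which 8 of the 9 reached. Of these 8, 3 were lower past it, where 5.19% of 9150 genes were, and 1 was higher, where 2.90% of genes were. Their median log2 ratio of cKO over WT was -0.77, against -0.07 for all genes at that level. The plot of levels shows both libraries side by side.

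**Figure D1:**
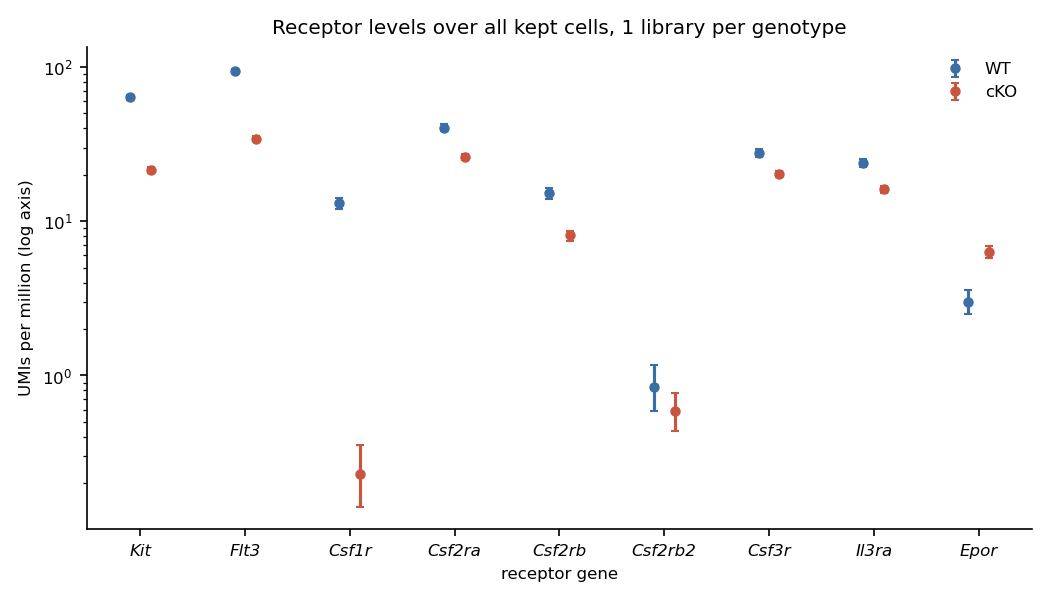
Level of each receptor gene in CPM over all kept cells (log axis), for the WT library (blue) and the cKO library (red). Points are sums over the cells of 1 library and bars are exact 95% Poisson intervals. Kit, Flt3 and Csf1r lie clearly lower in cKO, Csf1r at 0.230 against 13.1 CPM, and Epor alone lies higher, at 6.32 against 3.01 CPM. Levels of different genes are not comparable, because transcripts differ in how well their 3-prime ends are captured.

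In the WT library several receptor genes peaked in different gates, and Csf2rb2, with 35 UMIs, had too few to place. Kit was highest in HSC-gated cells, at 137 CPM (108 to 170), and Flt3 in lymphoid-primed cells, at 229 CPM (201 to 260). Csf1r peaked in the monocyte or dendritic gate at 60.6 CPM (47.3 to 76.4), followed by the GMP gate at 26.4 CPM (23.1 to 30.1). Csf2ra peaked in the neutrophil gate at 116 CPM (86.6 to 152), while Epor peaked in the erythroid gate of only 18 cells at 59.5 CPM (28.5 to 109). The IL-3 receptor subunit gene Il3ra was at 99.0 CPM in the basophil or mast gate of 16 cells, with a wide interval of 47.5 to 182 CPM. Neighbouring gates often did not separate. Csf2rb was 22.2 CPM in GMP-gated cells, 18.8 CPM in monocyte or dendritic cells and 17.8 CPM in neutrophil-gated cells, with intervals that overlapped, and Csf3r was 37.9 CPM in neutrophil-gated and 32.4 CPM in GMP-gated cells, again with overlap.

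**Figure D2:**
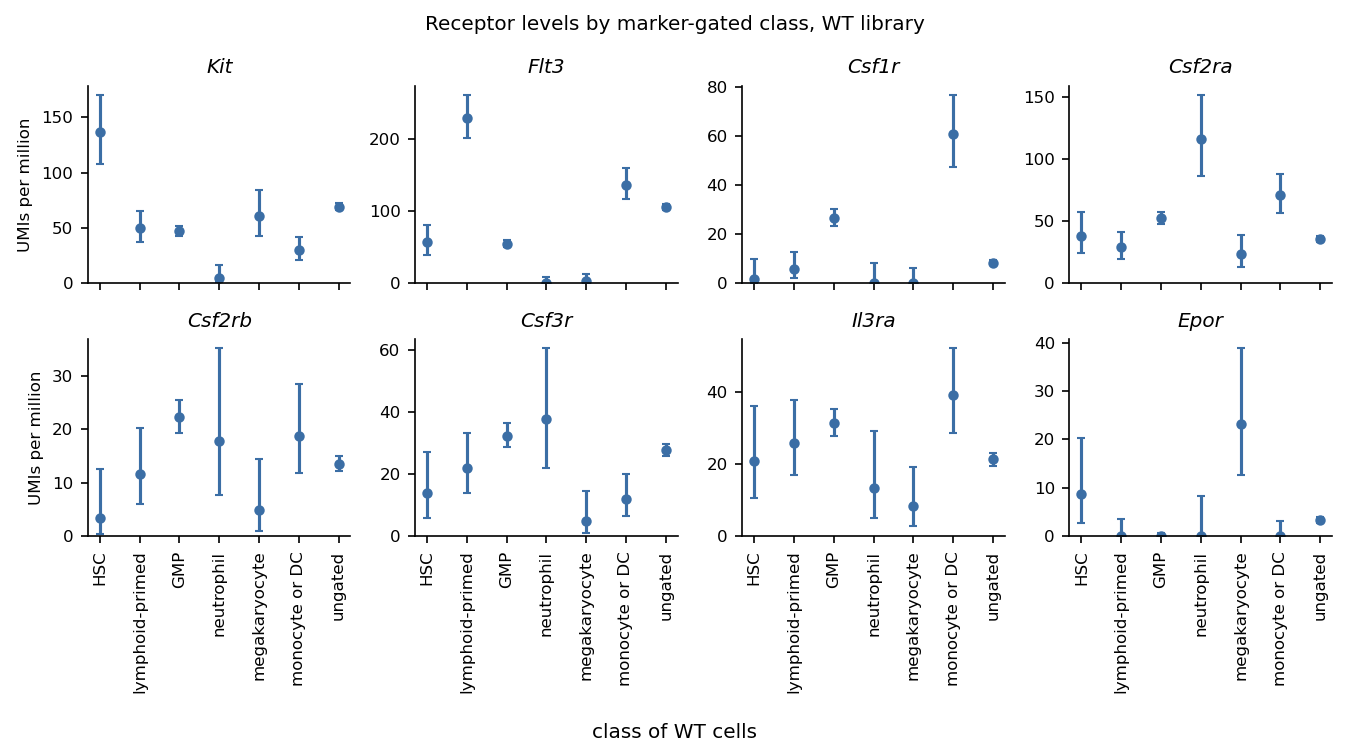
Levels of 8 receptor genes in the WT library, in CPM, for the 6 gates with at least 50 WT cells and for ungated cells. Points are sums over the cells of a class and bars are exact 95% Poisson intervals. The highest point is the HSC gate for Kit (137 CPM), the lymphoid-primed gate for Flt3 (229 CPM), the monocyte or dendritic gate for Csf1r (60.6 CPM) and the megakaryocyte gate for Epor (23.1 CPM).

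Kit, the receptor for stem cell factor, was 63.5 CPM in WT (61.1 to 66.0) and 21.6 CPM in cKO (20.6 to 22.6). The log2 ratio was -1.55 (-1.64 to -1.47), a level 2.94-fold lower in cKO. After thinning to 2000 UMIs, 12.9% of WT cells had a Kit UMI (12.2 to 13.7), against 4.88% in cKO (4.43 to 5.36), and without thinning in 26.2% and 19.1%. All of these cells had been sorted on c-Kit protein. In a class where Kit should be low, the WT neutrophil gate, 1 of 61 cells had a UMI at the same depth (1.64%, at most 8.80%). The T or NK gate planned for that use held only 3 WT and 18 cKO cells, of which 0 and 1 had a Kit UMI.

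Kit kept its order with stem cell markers in both libraries, at a lower level in cKO. Among WT cells it was 54.4 CPM with no HSC marker, 76.7 CPM with 1, 107 CPM with 2 and 134 CPM with 3 or more. The corresponding cKO levels were 18.7, 22.9, 28.1 and 39.1 CPM. At every number of markers the WT and cKO intervals were apart, and the log2 ratio ranged from -1.54 in cells with no marker to -1.93 in cells with 2. The summed level of the 10 HSC markers over all kept cells was 208 CPM in WT and 332 CPM in cKO, the opposite order to Kit. Inside the HSC gate the summed markers were 1609 CPM in WT and 1137 CPM in cKO. These markers set the gate, and the gated cells differed in depth, with medians of 2871 UMIs in WT and 6988 in cKO. No order is therefore read from these sums.

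Within gates, Kit was 137 CPM in WT HSC-gated cells and 39.2 CPM in cKO HSC-gated cells, a log2 ratio of -1.80 (-2.23 to -1.37). With a requirement of 4 markers instead of 3, 36 WT and 91 cKO cells remained and the ratio was -1.06. In the lymphoid-primed gate Kit was 50.1 CPM in WT and 10.1 CPM in cKO, the latter from only 4 UMIs (log2 ratio -2.15, -4.24 to -0.87). Ungated cells, which hold most Kit UMIs of both libraries, had 69.2 and 20.9 CPM. GMP-gated cells had 46.9 and 30.0 CPM, with intervals that overlapped at 42.4 to 51.7 and 18.1 to 46.9 CPM.

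Flt3, the receptor that accompanies lymphoid priming, was 94.1 CPM in WT (91.2 to 97.1) and 34.2 CPM in cKO (33.0 to 35.5). Its log2 ratio was -1.46 (-1.53 to -1.39), or 2.75-fold lower. At 2000 UMIs 16.9% of WT cells had a Flt3 UMI (16.1 to 17.7), against 5.99% in cKO (5.49 to 6.52). None of the 61 neutrophil-gated WT cells had a Flt3 UMI, and a count of 0, read as at most 3 cells, allows a share of cells with a UMI of up to 4.92%. In the megakaryocyte gate 1 of 114 WT cells had one.

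The Flt3 ratio was smaller in size in cells with more markers of the lymphoid-primed list. In WT it was 65.5 CPM in cells without a lymphoid-primed marker, 128 CPM with 1, 226 CPM with 2 and 227 CPM with 3 or more. In cKO the same steps were 26.1, 68.8, 155 and 200 CPM. The log2 ratios at these steps were -1.33 (-1.42 to -1.24), -0.90 (-1.04 to -0.77), -0.54 (-0.77 to -0.33) and -0.18 (-0.55 to 0.17). The first interval lies apart from the others, the second and the third meet at -0.77, and the last spans 0, with 259 WT and 62 cKO cells. In the lymphoid-primed gate itself Flt3 was 229 CPM in WT and 197 CPM in cKO (log2 ratio -0.21, -0.61 to 0.16). The ratio depended on the gate, at -0.58 when all UMIs of a cell were used and -0.89 when 1000 were. A narrower gap was not particular to this list. With 3 or more GMP markers the Flt3 ratio was -0.27 (-0.90 to 0.26, 35 cKO cells), against -1.64, -1.24 and -1.48 with 0, 1 and 2. With 1 basophil or mast marker it was -0.50 (-0.80 to -0.22). Over the HSC list it went the other way, from -1.27 with no marker to -1.86 with 3 or more. The summed level of the 8 lymphoid-primed markers over all kept cells was 339 CPM in WT and 111 CPM in cKO, with no marker at 0. The part of these markers in the overall Flt3 difference was not tested.

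In HSC-gated cells Flt3 was 57.1 CPM in WT (39.3 to 80.2) and 15.1 CPM in cKO (11.0 to 20.3), a log2 ratio of -1.92 (-2.60 to -1.22). With the gate set on 1000 UMIs per cell instead of 2000 the ratio was -0.96, short of 2-fold. At 2000 UMIs 19 of 183 WT cells and 11 of 398 cKO cells of that gate had a Flt3 UMI. B-gated cells of the cKO library, 82 in number, had 100 CPM Flt3 (75.4 to 130), above the 33.8 CPM of ungated cKO cells. The WT B gate had 11 cells and 2 Flt3 UMIs and gives no usable level.

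**Figure D3:**
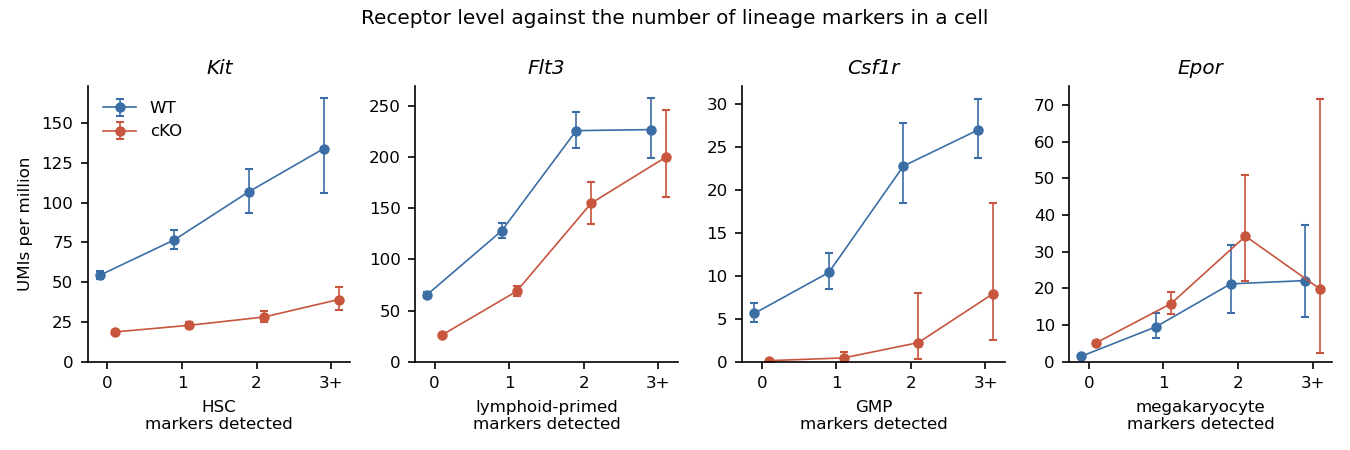
Level of Kit, Flt3, Csf1r and Epor, in CPM, against the number of markers of the named lineage detected in a cell at 2000 UMIs, for WT (blue) and cKO (red). A GMP marker counted as detected at 3 UMIs or more, other markers at 1. Points are sums over all cells with that number of markers and bars are exact 95% Poisson intervals. Kit stays apart between the libraries at every step (134 against 39.1 CPM at 3 or more HSC markers), whereas Flt3 reaches 227 and 200 CPM at 3 or more lymphoid-primed markers with overlapping bars.

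Csf1r, the M-CSF receptor of the monocyte lineage, showed the widest gap of the 9 genes. It had 543 UMIs in WT (13.1 CPM, 12.0 to 14.2) and 20 UMIs in cKO (0.230 CPM, 0.140 to 0.355). The log2 ratio was -5.80 (-6.55 to -5.19). At 2000 UMIs, 138 of 7947 WT cells (1.74%) and 4 of 8380 cKO cells (0.0477%) had a Csf1r UMI. None of the 114 megakaryocyte-gated WT cells had one, and 3 cells would be a share of 2.63%.

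Most WT Csf1r UMIs were in cells with myeloid markers: 42.4% came from GMP-gated and 13.1% from monocyte or dendritic cells, and 42.7% from ungated cells. The WT level was 5.62 CPM without a GMP marker at 3 UMIs or more, and 10.4, 22.8 and 27.0 CPM with 1, 2 and 3 or more such markers. In cKO it was 0.118, 0.441, 2.22 and 7.91 CPM, the last from 5 UMIs in 35 cells. The log2 ratio in cells without a GMP marker was -5.50 (-6.74 to -4.59), and in ungated cells -5.53. With 1, 2 and 3 or more GMP markers it was -4.40 (-6.47 to -3.16), -3.05 (-6.43 to -1.47) and -1.64 (-3.41 to -0.53). The marker lists of the lineage moved with it: the summed level over all kept cells was 6765 CPM in WT and 752 CPM in cKO for GMP, 5556 and 8.07 CPM for neutrophil, with 2 of 10 neutrophil markers at 0 in cKO, and 449 and 172 CPM for monocyte or dendritic markers. Their part in the Csf1r difference was not tested. The monocyte or dendritic gate had 71 Csf1r UMIs in 164 WT cells and 1 UMI in 44 cKO cells, a gate that was under the 50 cells set for a ratio. In HSC-gated cells Csf1r was at 1 UMI in WT and 0 in cKO, too few for a ratio.

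Of the subunits of the GM-CSF and IL-3 receptors, Csf2ra, Il3ra and Csf2rb were lower in cKO by less than 2-fold over all kept cells, and Csf2rb2 could not be placed. Csf2ra was 40.4 CPM in WT (38.5 to 42.4) and 26.1 CPM in cKO (25.1 to 27.2), a log2 ratio of -0.63 (-0.72 to -0.54). Il3ra was 23.7 CPM (22.3 to 25.3) and 16.1 CPM (15.2 to 16.9), which gave a log2 ratio of -0.56 (-0.68 to -0.44). The common beta chain gene Csf2rb was 15.2 CPM (14.0 to 16.4) and 8.08 CPM (7.49 to 8.70), a log2 ratio of -0.91 (-1.07 to -0.75). Csf2rb2 had 35 UMIs in WT and 51 in cKO, or 0.843 and 0.586 CPM, and its log2 ratio of -0.53 had an interval of -1.17 to 0.14.

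Shares of cells with a UMI were lower in cKO for Csf2ra, Il3ra and Csf2rb when cells were thinned to 1000, 2000 or 3000 UMIs. At 2000 UMIs a Csf2ra UMI was found in 7.47% of WT and 4.87% of cKO cells, an Il3ra UMI in 4.28% and 3.37%, and a Csf2rb UMI in 2.87% and 1.55%. Without thinning the order was the opposite, at 16.7% and 22.0% for Csf2ra, 10.7% and 14.7% for Il3ra, and 6.87% and 7.70% for Csf2rb. The unthinned shares go with the greater depth of the cKO library and against the CPM, and no order is read from them. The share of cells with a Csf2rb2 UMI was 0.214% in WT and 0.203% in cKO.

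By gate, Csf2ra was 38.1 CPM in WT and 30.6 CPM in cKO HSC-gated cells, 28.9 and 27.8 CPM in lymphoid-primed cells, and 52.2 and 53.8 CPM in GMP-gated cells. Each of these pairs had overlapping intervals. In the monocyte or dendritic gate it was 70.8 CPM in WT (56.4 to 87.8) and 113 CPM in cKO (77.0 to 159), where its 32 UMIs lay in 12 cells and up to 7 in 1 cell. The cells of that gate differed, with summed markers of 2808 CPM in WT and 10015 CPM in cKO (2 of 11 markers at 0), and a median of 1 GMP marker per cell in WT against 0. Csf2rb in HSC-gated cells rested on 2 UMIs in WT and 25 in cKO (3.46 and 8.60 CPM, log2 ratio 1.02, -0.69 to 4.44), and in cells with exactly 2 HSC markers the ratio was -0.19. In the small basophil or mast gate, 16 cells in each library, Csf2rb was 19.8 CPM in WT (2.40 to 71.5) and 163 CPM in cKO (84.5 to 286). These cells differed as well: 12 of the 16 in WT had exactly 3 markers, against 1 in cKO, the summed markers were 25284 and 62568 CPM, and the median WT cell carried 1.5 GMP markers. The part of these differences in the receptor levels was not tested. Il3ra was 99.0 and 150 CPM there, and 3 of the 51 cKO Csf2rb2 UMIs fell in these 16 cells. In the monocyte or dendritic gate Il3ra went the other way. It was 39.2 CPM in WT (28.7 to 52.3) and 7.04 CPM in cKO (0.852 to 25.4), the latter from 2 UMIs.

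Csf3r, the G-CSF receptor, was lower in cKO by less than 2-fold over all kept cells. It was 27.7 CPM in WT (26.1 to 29.3) and 20.2 CPM in cKO (19.3 to 21.2), a log2 ratio of -0.45 (-0.56 to -0.34). At 2000 UMIs a UMI was found in 5.46% of WT and 3.90% of cKO cells, and without thinning in 12.3% and 17.4%. None of the 82 B-gated cKO cells had a Csf3r UMI, and 3 cells would be a share of 3.66%. Csf3r was 13.8 and 14.8 CPM in HSC-gated WT and cKO cells, from 8 and 43 UMIs (log2 ratio 0.02, -1.01 to 1.40). The 6 alternatives put that ratio below 0, from -0.07 to -0.87, the last in cells with exactly 2 HSC markers (-1.30 to -0.42). The Csf3r level was 32.4 CPM (28.7 to 36.4) and 49.0 CPM (33.3 to 69.6) in GMP-gated cells, the second from 31 UMIs in 35 cells. Csf1r and Csf3r, both receptors of the myeloid lineage, thus differed in the size of their gap. In cells with no GMP marker at 3 UMIs or more, the log2 ratio was -5.50 for Csf1r and -0.20 (-0.36 to -0.04) for Csf3r. With 1 GMP marker the Csf3r ratio was -0.56 (-0.81 to -0.31), and it lay above 0 with 2 markers, at 0.83 (0.26 to 1.34, 64 cKO cells). With 3 or more it was 0.64 (0.03 to 1.15), but from 35 cKO cells, fewer than the 50 set for a gate, and at 2000 UMIs 2.86% of those cells (0.0723 to 14.9) against 7.69% in WT had a Csf3r UMI, with intervals that overlapped.

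Epor, the erythropoietin receptor, was the only one of the 9 genes with a higher level in cKO. It had 125 UMIs in WT (3.01 CPM, 2.51 to 3.59) and 550 UMIs in cKO (6.32 CPM, 5.80 to 6.87). The log2 ratio was 1.07 (0.79 to 1.36), close to the threshold of 1, and other ways of summing the cells put it between 0.85 and 1.19. At 2000 UMIs 47 of 7947 WT cells (0.591%) and 115 of 8380 cKO cells (1.37%) had an Epor UMI. None of the 831 GMP-gated WT cells had one at that depth, and 3 cells would be a share of 0.361%.

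Epor was highest where erythroid and megakaryocyte markers were. It was 59.5 CPM in 18 erythroid-gated WT cells and 97.6 CPM (53.3 to 164) in 9 cKO cells. Over the number of megakaryocyte markers it was 1.48, 9.51, 21.2 and 22.1 CPM in WT at 0, 1, 2 and 3 or more markers, and 5.16, 15.8, 34.2 and 19.8 CPM in cKO, the last with 2 UMIs. The gap was largest in cells without a megakaryocyte marker, at a log2 ratio of 1.79 (1.39 to 2.25), and was 0.72 (0.17 to 1.33) with 1 marker. In cells without a GMP marker the Epor ratio was 0.21 (-0.08 to 0.53), an interval that spans 0. In HSC-gated cells Epor was 8.65 CPM in WT and 6.88 CPM in cKO, from 5 and 20 UMIs (log2 ratio -0.43, -1.79 to 1.44). The summed megakaryocyte markers were 205 CPM in WT and 61.3 CPM in cKO, with 1 of 10 markers at 0 in each library, and the erythroid markers 35.3 and 13.3 CPM, so both lists were lower in the library where Epor was higher.

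Counted by gate, fewer receptor genes could be placed. In HSC-gated cells 7 of the 9 reached 5 CPM. Kit and Flt3 were lower past 2-fold, where 14.0% of genes were (with the gate set on 1000 UMIs, Kit and Csf2ra were, and Flt3 was not), and Csf2rb was higher past it on 2 WT UMIs, where 4.76% of genes were. The intervals of Csf2rb and of the other 4 spanned 0. In lymphoid-primed cells Kit and Il3ra were lower past 2-fold, where 9.57% of genes were, and none was higher, where 9.94% of genes were. Il3ra rested there on 27 WT and 4 cKO UMIs, with a log2 ratio of -1.22 and an interval that spanned 0 (-3.34 to 0.16), and was at -0.84 when all UMIs of a cell were used for the gate. Csf1r had 6 UMIs in WT and 0 in cKO in that gate, and the 3 counts that a 0 allows would put its cKO level above the WT level, so it has no direction there. In ungated cells Kit, Flt3 and Csf1r were lower past 2-fold, where 5.82% of genes were, and none was higher, where 2.58% were.

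**Figure D4:**
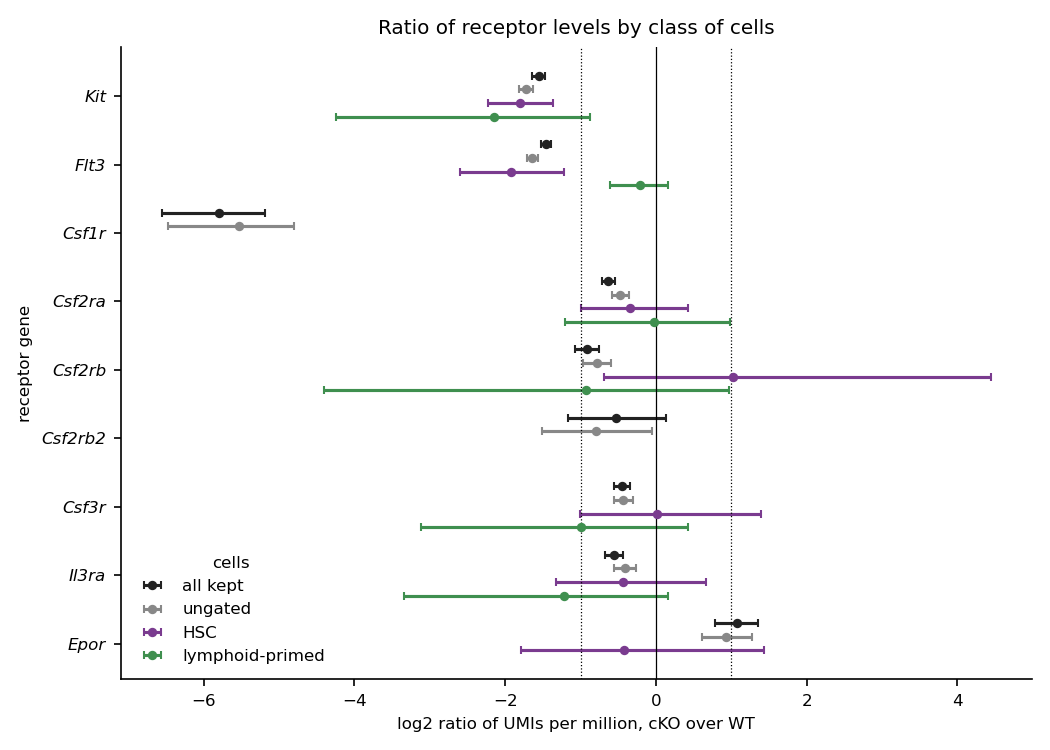
Log2 ratio of the level in cKO over WT for each receptor gene in all kept cells, ungated cells, HSC-gated cells and lymphoid-primed cells. Points are ratios of 2 libraries, bars are exact 95% intervals for counting error, and dotted lines mark a 2-fold difference. Ratios at or under 3 UMIs in both libraries, or with a library at 0, are not drawn. Kit lies below -1 in all 4 classes, while Flt3 lies at -0.21 in lymphoid-primed cells and below -1 in the other 3.

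Receptor levels also differed with the depth of the cell, and depth differed between the libraries. In WT, Kit was 90.8 CPM in cells of 2000 to 4000 UMIs, 61.8 CPM at 4000 to 8000, 40.0 CPM at 8000 to 16000 and 43.3 CPM above. In cKO the same bins had 45.8, 33.7, 19.6 and 15.8 CPM. Compared within a bin, the log2 ratio of Kit was -0.97 (-1.54 to -0.48), -0.87 (-1.03 to -0.72), -1.03 (-1.19 to -0.87) and -1.46 (-1.84 to -1.05). Each of these is smaller in size than the -1.55 over all cells, and 2 of the 4 lie short of 2-fold, with all 4 intervals below 0. The bins also differed in gates: from the shallowest to the deepest, 1.06, 6.32, 48.8 and 87.8% of WT cells were GMP-gated. In cKO these shares were 0, 0.0453, 0.207 and 3.55%. Kit was 46.9 CPM in GMP-gated WT cells, and the parts of depth and gate in these values were not tested.

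For Flt3 the ratio was -1.73, -1.30 and -1.21 in the first 3 bins, and 0.83 (0.34 to 1.40) among the deepest cells. That bin held 98 WT and 648 cKO cells, of which 86 WT cells (87.8%) and 23 cKO cells (3.55%) were GMP-gated. The Csf2rb ratio went from 0.87 (0.04 to 1.54) in the shallowest bin, with 18 cKO UMIs, through -0.32 to -1.31 and -1.40 in the deepest. Among cells of 8000 to 16000 UMIs, 48.8% of WT and 0.207% of cKO cells were GMP-gated, and Csf2rb was 18.8 and 7.59 CPM. The Csf2ra ratio was -0.93, -0.52, -0.74 and -1.04 (-1.36 to -0.70) from the shallowest bin to the deepest, with every interval below 0. The Il3ra ratio was 0.21 (-0.66 to 0.90, with 16 cKO UMIs), -0.43, -0.78 and -1.06 (-1.49 to -0.59), so both genes passed 2-fold among the deepest cells. The Csf3r ratio was -2.02 (-3.79 to -0.92, with 5 cKO UMIs), -0.67, -0.32 and -0.35, the last spanning 0. The Csf1r ratio was below 0 in every bin, from -1.30 (-7.20 to 0.66, with 1 cKO UMI) to -7.55 (-8.86 to -6.64). The Epor ratio was 0.86 (0.38 to 1.35) at 4000 to 8000 UMIs and 2.44 (1.67 to 3.46) at 8000 to 16000, where WT had 12 Epor UMIs, and spanned 0 in the shallowest bin.

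**Figure D5:**
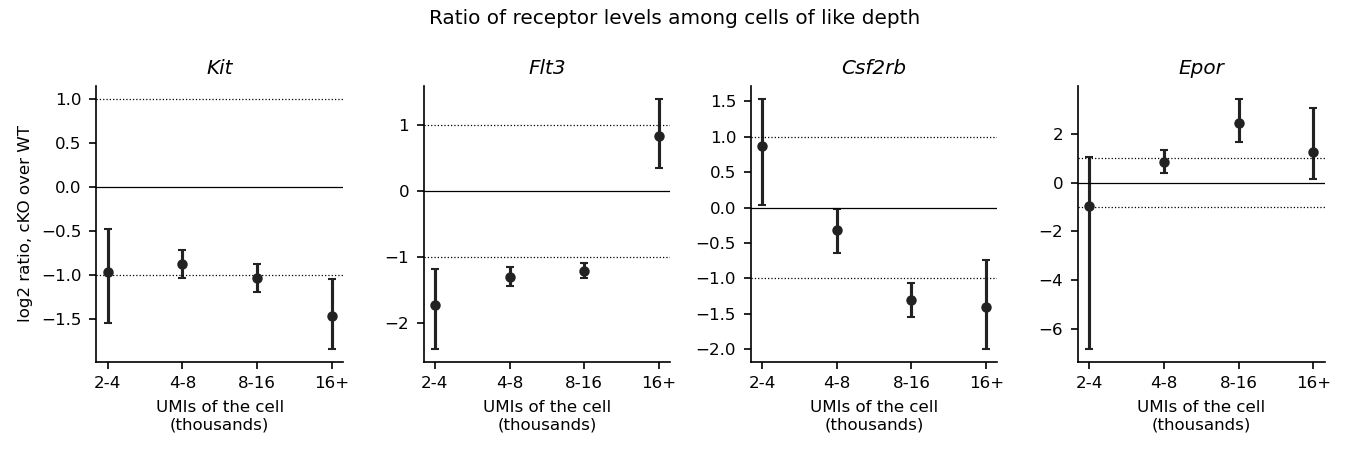
Log2 ratio of the level in cKO over WT for Kit, Flt3, Csf2rb and Epor among cells of like depth, in 4 bins of UMIs per cell. Points are ratios of 2 libraries, bars are exact 95% intervals for counting error, dotted lines mark a 2-fold difference, and the vertical scale differs between panels. Kit is lower in all 4 bins (-0.97, -0.87, -1.03 and -1.46), and Flt3 changes side in the deepest bin (0.83), which held 98 WT cells. The bins do not match the gates of the cells: 87.8% of WT and 3.55% of cKO cells of the deepest were GMP-gated.

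Few cells had more than 1 receptor transcript detected. At 2000 UMIs, none of the 9 genes was detected in 57.7% of WT (56.6 to 58.8) and 76.3% of cKO cells (75.4 to 77.3). Exactly 1 gene was detected in 33.2% of WT and 21.3% of cKO cells, 2 genes in 8.10% and 2.18%, and 3 or more in 0.969% and 0.167%. The most in any cell was 4 in both libraries.

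No excess of joint detection could be measured at this depth for subunits that work as a pair. Among WT cells with a Csf2ra UMI 2.86% (1.68 to 4.54) also had a Csf2rb UMI, and among the other cells 2.87% (2.50 to 3.28). For Il3ra with either beta chain the shares were 3.53% (1.84 to 6.08) and 3.05% (2.67 to 3.46) in WT, and 3.19% and 1.69% in cKO, where 9 cells had both. Kit and Flt3 were found together in 156 WT and 21 cKO cells. A Flt3 UMI was present in 15.2% of WT cells with Kit (interval up to 17.5) and 17.1% of those without (16.2 to 18.0). All of these pairs of intervals overlapped, and a difference was not detectable at this depth.

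The genes around the receptors were read from 6 lists over all kept cells. Of 10 ligand genes only Flt3l, which encodes Flt3 ligand, reached 5 CPM, with 4.84 CPM in WT against 10.3 CPM in cKO (log2 ratio 1.09, 0.87 to 1.32), while 5 ligand genes had no UMI in either library. Among 21 other cytokine receptors 12 reached 5 CPM. Il27ra, the IL-27 receptor subunit, was higher past 2-fold (11.0 and 28.3 CPM, log2 ratio 1.36), and Il6ra (20.7 and 4.92 CPM, -2.07) and its signalling partner Il6st (8.45 and 3.69 CPM, -1.20) were lower. Il2rg, the common gamma chain, was 45.7 and 75.1 CPM (log2 ratio 0.72). Among the 12, 1 was thus higher and 2 lower past 2-fold, where 2.90% and 5.19% of all genes were, and the median was -0.27.

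None of the kinases and factors below the receptors passed 2-fold, where 2.90% of all genes were higher and 5.19% lower. All 11 JAK and STAT genes reached 5 CPM, and their median log2 ratio was -0.31. The lowest were Stat5b (19.7 and 10.2 CPM, log2 ratio -0.95), the STAT factor shared by many of these receptors, and Jak2 (14.8 and 8.47 CPM, -0.81), the kinase bound to Epor and to the common beta chain. The highest was Stat4, at a log2 ratio of 0.30. Of 10 adaptors and kinases 9 reached 5 CPM and none passed 2-fold. Their lowest were Fes (log2 ratio -0.95) and the Src family kinase Lyn (-0.60), their highest Sos1 (0.13) and Pik3cd (-0.05), and their median was -0.16.

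The brakes of receptor signalling held the largest differences among the 6 lists. Of 9 genes 8 reached 5 CPM, and 3 were higher past 2-fold, where 2.90% of all genes were, and 1 was lower, where 5.19% were. Their median was 0.03. Socs2, a feedback inhibitor of cytokine receptors, had 87 UMIs in WT and 7985 in cKO (2.09 and 91.8 CPM, log2 ratio 5.44, 5.15 to 5.77). Cish, a related inhibitor, was 4.72 and 29.8 CPM (log2 ratio 2.66, 2.45 to 2.88), and Socs1 6.07 and 15.9 CPM (1.39). Socs3 went the other way, at 26.1 and 11.6 CPM (log2 ratio -1.17), and Cbl, a ubiquitin ligase for receptor kinases, was 22.1 and 12.9 CPM (-0.78). Cish, Socs2 and Socs3 are themselves known as STAT targets. In a separate list of 5 other STAT5 target genes all reached 5 CPM and none passed 2-fold, with Pim2 at a log2 ratio of 0.86, Bcl2l1 at 0.67, and Pim1 and Myc at -0.31 each. Their median was 0.59.

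Genes with the distribution most like each receptor gene were ranked among 3702 genes, leaving out Csf2rb2, which reached 5 CPM in neither library. The ranking ran over 7 classes of the WT library, the 6 gates with at least 50 cells and the ungated cells. Pearson's r here describes 7 points from 1 library that share depth and gate, and carries no test. Nearest to Kit were Sde2 (r = 0.993), Zcchc9 (0.992) and Dusp23 (0.991), each highest in the HSC gate. Nearest to Flt3 were Tmem173 (0.988), Tctex1d2 (0.984) and Znrf1 (0.981), each highest in lymphoid-primed cells. Epor was nearest to Rab27b (0.997), Gp5 (0.991), a platelet glycoprotein gene, and Fermt3 (0.985), with their highest levels in the megakaryocyte gate. For Csf1r the nearest were Rpa1, Tifab and Ctsz (0.992, 0.982 and 0.977), and for Il3ra Gdi2, Fam105a and Cnpy3 (0.983, 0.978 and 0.971), all highest in the monocyte or dendritic gate. Csf2ra was nearest to Myo1f, Atg3 and G6pdx (0.978, 0.972 and 0.968), highest in the neutrophil gate. Csf2rb was nearest to Prkag1, Cdca3 and Cdc20 (0.962, 0.961 and 0.961), the last 2 known as cell cycle genes. Csf3r had no neighbour as close, with Msra at 0.893, Tcn2 at 0.871 and Serpinb1a at 0.867.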

How the data were processed

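UMI counts per gene and cell barcode were used as the authors deposited them, made with Cell Ranger 6.0.0 on mm10 (the submitters' processing notes and the study's methods), with 47991455 UMIs over 8869 barcodes in WT and 98323201 over 9260 in cKO. The labels name 3-prime kit chemistry v2, the study's methods v3. Each library followed the study's limits: over 200 genes, under 4000 (WT) or 4500 (cKO) genes, under 10% (WT) or 5% (cKO) mitochondrial and under 5% hemoglobin UMIs, which passed 8763 and 9151 barcodes. A filter of genes seen in few cells was not used here. Doublets were scored by the share of simulated doublets among 50 neighbours in 20 principal components of 1500 variable genes (scikit-learn 1.9.0), marking 7.09% and 7.41% of barcodes and removing 611 and 666 cells. The study's cell numbers after its own quality control were not matched cell by cell, as no list of cells was used.

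Levels are UMIs summed over cells and scaled to 1000000 (CPM). Intervals (scipy 1.17.1, Python 3.11.15) are exact: Poisson for levels, binomial given the summed count for ratios, and Clopper-Pearson for shares of cells, except that a share of 0 is given with the share that 3 cells would make. Log2 ratios had 0.5 added to both counts. A gene at 0 in a library was counted past 2-fold only if it also passed with 3 counts in its place, and no ratio is given with at most 3 UMIs in both. Cells for gates and shares were thinned to 2000 UMIs, leaving 7947 WT and 8380 cKO cells. GMP and neutrophil markers needed 3 UMIs in a cell, others 1. Scripts were checked on simulated counts. Genotypes were grouped by the sample titles. The receptor genes, marker lists and pathway lists were chosen with earlier results of these data known. All receptor genes are named, and of each pathway list the 2 highest and 2 lowest genes at 5 CPM or more, except 1 that is not reported here. Socs1 is named in addition because it passed 2-fold. The rule for similar genes (3 per receptor gene, 50 CPM or more in a class, log2 of CPM plus 10) required gates with 50 cells in both libraries. Only 2 gates had them, so the WT classes were used instead, a choice made after seeing the data, as were the bins of depth, the comparison of ungated cells and that of cells with exactly 2 HSC markers. Alternatives included TMM factors from edgeR 4.0.16 in R 4.3.3.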

Additional observations from a re-analysis of the deposited data

How the results depend on the processing

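No paired analysis was possible because each genotype had 1 library. Over all kept cells, 3 of the 8 receptor genes at 5 CPM or more lay lower past 2-fold under 11 of 12 alternatives, and 2 did among cells of 4000 to 8000 UMIs, where Kit was at -0.87 and Csf2rb2, with few UMIs, at 1.43. The count of genes higher past 2-fold was 1 (Epor) and became 0 without any filter, with each cell scaled before averaging, with WT classes weighted to the cKO mix, at a minimum of 10 CPM, among cells of 4000 to 8000 UMIs and among ungated cells. Epor kept its direction in all 12, from 0.85 to 1.19. In HSC-gated cells the count of 1 (Csf2rb) became 0 with 2 or 4 markers required, with gating on all UMIs or on 1000 UMIs, and in cells with exactly 2 HSC markers. The 2 lower genes there were Kit and Flt3, but Kit (-1.36) and Csf2ra (-1.19) when gated on 1000 UMIs, with Flt3 at -0.96. Csf2rb was -0.16 with 2 markers required and -0.19 in cells with exactly 2. In lymphoid-primed cells the count of 2 lower genes became 3 with 2 markers required, 0 with 4 and 1 when gated on 1000 UMIs, where Il3ra was 0.45 and Flt3 -0.89. It stayed 2 when gated on all UMIs, but Il3ra (-0.84) was then not among them. Without thinning, the cKO minus WT difference in the share of cells with a UMI reversed to 5.24 points for Csf2ra, 0.826 for Csf2rb, 5.07 for Csf3r and 4.01 for Il3ra. TMM factors, median-of-ratios size factors and totals without mitochondrial and ribosomal protein genes shifted every log2 ratio by 0.10, 0.11 and 0.10. Causes were not tested. Depth limits Csf2rb2 and every gate of fewer than 50 cells.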
